A study of Homo sapiens with 18 samples.

Results

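The zinc finger genes of human chromosome 19 were followed in the HT29 and HTOXAR3 colorectal cancer cell lines at the level of RNA. They were taken as every gene whose name on the array was ZNF followed by digits and whose probe lay on chromosome 19, which gave 237 of the 36204 gene names measured (361 probes on 451 spots). HT29, from a human colorectal adenocarcinoma, is sensitive to oxaliplatin (OXA), a platinum drug that damages DNA, and HTOXAR3 is an OXA-resistant subline obtained from it by growth under rising OXA doses. RNA was measured in each line under basal conditions, after OXA for 24 h (10 µM in HT29 and 30 µM in HTOXAR3) and after OXA at the same dose plus Curcumin, a plant polyphenol, at 10 µM for 24 h. Each of the 6 groups had 3 biological replicates, 18 arrays in all, and the question was how acquired resistance and the addition of Curcumin to OXA altered transcription. The OXA doses followed the inhibitory concentration of each line, so that a difference between the lines under treatment also compared doses, and no array of Curcumin alone was analysed here. Resistance was represented by a single subline, and whether it is a clone was not stated in the sources used here.

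Most of these genes encode DNA-binding proteins made of a row of C2H2 zinc fingers, and many carry an amino-terminal KRAB domain. The KRAB domain binds the corepressor TRIM28 (KAP1), which brings in the histone methyltransferase SETDB1, HP1 proteins and the NuRD deacetylase complex, so that H3K9me3 is laid down and the bound locus, often a transposable element, is silenced. The genes lie in clusters along chromosome 19 that grew by tandem duplication, and neighbours within a cluster are close relatives.

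The shared architecture could be read in the probe sequences themselves, which the array files give. Of the 237 probes used, 8 (3.4%) crossed the short linker that joins neighbouring fingers in an open reading frame. The probe of *ZNF233* (GRCh37 chr19:44778614-44778673, plus strand) was among them and is shown because this gene was called higher when Curcumin was added in both lines (in HT29 the call did not hold in most fits with an array left out), with the linker codons in capitals.
ZNF233 probe: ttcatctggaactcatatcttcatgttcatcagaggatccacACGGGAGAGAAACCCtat
Its closest match among probes of other ZNF genes was to *ZNF226*, with 41 of 60 bases shared in an ungapped overlay. The median over the 237 probes was 31.0 bases, and 8 probes shared at least 50 bases with a probe of another ZNF gene, so that cross-hybridization cannot be told apart from signal for those 8. Of the genes named below as called, the probes of *ZNF799* (49 bases shared with *ZNF443*), *ZNF701* (49 with *ZNF782*) and *ZNF565* (45 with *ZNF583*) were the closest to another gene.

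Promoter sequences (RefSeq, GRCh38.p14, 250 bases before to 50 bases after the transcription start) were matched for 204 of the 237 genes. They were rich in CpG, with a median observed over expected ratio of 0.77 against 0.58 over 27305 promoters. The hexamer TGCGCA, which reads the same on both strands, was present in 19.1% of them against 8.4% of all promoters. The letters CTTCCGG, a core of ETS factor motifs, were present on either strand in 43.6% against 10.7% of all promoters. Among 195 promoters of ZNF genes on other chromosomes, TGCGCA was present in 15.9% and CTTCCGG in 36.9%. Of 7 genes in 1 cluster that were up-regulated when Curcumin was added in HTOXAR3, the 4 with a promoter entry are given here, with capitals on the letters TCTGGGAA or, from the other strand, TTCCCAGA.
ZNF222 (chr19:44025129-44025428, plus strand): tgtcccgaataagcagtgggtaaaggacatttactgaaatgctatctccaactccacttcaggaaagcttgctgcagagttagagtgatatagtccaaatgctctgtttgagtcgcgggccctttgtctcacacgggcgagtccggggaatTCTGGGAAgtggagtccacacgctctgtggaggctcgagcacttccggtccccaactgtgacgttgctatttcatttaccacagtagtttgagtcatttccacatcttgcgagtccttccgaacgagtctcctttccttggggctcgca
ZNF224 (chr19:44094111-44094410, plus strand): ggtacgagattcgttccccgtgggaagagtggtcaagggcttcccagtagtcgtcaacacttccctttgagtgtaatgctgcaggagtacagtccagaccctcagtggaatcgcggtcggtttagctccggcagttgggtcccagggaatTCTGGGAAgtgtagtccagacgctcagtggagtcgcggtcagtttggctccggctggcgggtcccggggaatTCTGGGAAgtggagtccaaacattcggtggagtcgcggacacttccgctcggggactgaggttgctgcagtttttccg
ZNF226 (chr19:44164850-44165149, plus strand): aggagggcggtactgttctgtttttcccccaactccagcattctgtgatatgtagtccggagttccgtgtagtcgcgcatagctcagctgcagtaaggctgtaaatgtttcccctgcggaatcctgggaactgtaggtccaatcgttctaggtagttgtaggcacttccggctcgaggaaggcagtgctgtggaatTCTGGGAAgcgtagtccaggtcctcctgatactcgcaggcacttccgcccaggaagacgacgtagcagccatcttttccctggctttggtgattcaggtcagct
ZNF283 (chr19:43827071-43827370, plus strand): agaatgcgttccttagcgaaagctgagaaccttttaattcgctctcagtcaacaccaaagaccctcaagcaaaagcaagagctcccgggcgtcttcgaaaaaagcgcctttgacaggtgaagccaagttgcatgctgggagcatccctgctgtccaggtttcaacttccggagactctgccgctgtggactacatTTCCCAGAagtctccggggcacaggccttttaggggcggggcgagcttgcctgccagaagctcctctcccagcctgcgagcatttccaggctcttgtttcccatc
This motif and CTTCCGG were picked after the promoters had been read. TCTGGGAA was found in 14 of the 20 promoters of the cluster that holds the 4 genes (70.0%), against 2.9% of all promoters, and 10 of the 16 promoters of the cluster whose genes were not called higher in that comparison held it too (62.5%). Over all clusters it was found in 4 of the 23 promoters of genes called higher in that comparison (17.4%), against 17.6% of all promoters of chromosome 19 ZNF genes, and these 4 are the ones printed. A cluster further towards the centromere had it in 12 of 22 promoters (54.5%), and no gene of that cluster was called when Curcumin was added, in either line. Genes that arose by duplication are not independent observations, so the shares describe these clusters and carry no test.

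The arrays were alike in quality. Spots well above background made up 52.4% to 63.6% of each array, lowest in the second replicate of untreated HTOXAR3, and normalized values correlated at 0.985 to 0.995 between arrays of a group. The epithelial markers *EPCAM*, *CDH1*, *KRT8*, *KRT18* and *KRT20* were above background on all 18 arrays, *CDX2* on 10 and *CDH17* on 5, while the fibroblast genes *COL1A2* and *COL3A1* were above background on none, *DCN* and *PDGFRB* on 1, *LUM* on 5 and *COL1A1* on 10. Of the endothelial genes, *VWF* and *CDH5* were above background on all 18, *PECAM1* on 4 and *KDR* on 1, and *PTPRC*, *CD14* and *CD68* were above background on all 18. In untreated HTOXAR3 relative to HT29, 3 of 12 colon epithelium markers were lower, *LGALS4* (-2.08), *VIL1* (-1.61) and the dim *CDH17*, and the median change of the 12 was -0.39. The log2 of the summed list, which follows its brightest genes, lay between 18.98 and 19.08 in HT29 and between 19.02 and 19.05 in HTOXAR3. Of the 237 ZNF genes, 148 (62.4%) were well above background on all 18 arrays, 52 on some and 37 on none, against 48.2% of all gene names on all 18. All values below are normalized log2 intensities, and changes are log2 fold changes with their standard error (SE) from the limma fit. A gene was called when |FC| > 1.2 and its Benjamini-Yekutieli adjusted p over all gene names was below 0.05. The counts below rest on a variance estimated over all 18 arrays, and in the 7 comparisons between groups they were 0 to 23 when only the arrays compared were fitted.

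Under basal conditions, more ZNF genes were higher than lower in the resistant line. In HTOXAR3 relative to HT29, 19 of the 237 genes were up-regulated and 4 were down-regulated. Of all gene names 6.26% were called higher and 5.28% lower, against 8.02% and 1.69% of the ZNF genes, whose median change was 0.02 against -0.03 over all gene names. Among genes above background on all 18 arrays, 11.5% of the ZNF genes and 11.5% of all gene names were called higher, and 2.7% and 10.1% lower. As RNA was taken from whole cultures, fewer cells with a transcript and less of it per cell cannot be told apart. Up-regulated genes included *ZNF358*, *ZNF580*, *ZNF544* and *ZNF616*, and down-regulated genes were *ZNF837*, *ZNF264*, *ZNF283* and *ZNF552*. Of the 19 up-regulated genes, 11 lay in the cluster at the end of the long arm, from *ZNF628* to *ZNF446*, which holds 57 of the 237. The same cluster held 3 of the 4 down-regulated genes. Its median change was 0.08, with 33 of its 57 genes above 0.

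*ZNF358* (probe at chr19:7585214-7585273, GRCh37, as for all probe positions here) had the largest rise among genes measured on every array. Its values were 5.69, 5.81 and 5.91 in untreated HT29 and 7.47, 7.44 and 7.56 in untreated HTOXAR3, a rise of 1.68 (SE 0.16, adjusted p = 2.66e-05 by limma). *ZNF580* (chr19:56154712-56154771), a small C2H2 protein without a KRAB domain, read 11.45, 11.43 and 11.49 in HT29 and 12.65, 12.64 and 12.76 in HTOXAR3, which was higher by 1.23 (SE 0.09, limma adjusted p = 3.6e-06). For both genes the 3 arrays of each line lay close together and far from those of the other line.

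*ZNF573* showed the widest gap of all, and it fell outside the rule for named genes because its probe was not above background on the 3 arrays of untreated HT29. It was chosen after its values were seen. Its values were 4.08, 3.70 and 4.19 in untreated HT29 and 7.11, 7.18 and 7.26 in untreated HTOXAR3, where all 3 arrays were above background. The mean level was at least 7.24-fold higher in HTOXAR3 (limma adjusted p = 4.84e-08). This limit, like that for OXA below, takes untreated HT29 readings no lower than the lowest signal above background on each array. It leaves out the spread between replicates. In HT29 *ZNF573* was above background on all 3 arrays after OXA, with 4.66, 5.05 and 5.33, a rise of the mean of at least 1.61-fold (limma adjusted p = 0.00264), whereas in HTOXAR3 it stayed between 6.86 and 7.04 after OXA and between 6.62 and 6.85 after OXA plus Curcumin.

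*ZNF211*, likewise chosen after its values were seen, was higher in untreated HTOXAR3 by 1.42 (SE 0.23, limma adjusted p = 0.00394), with 6.32, 6.21 and 6.22 against 4.73, 4.86 and 4.89. Its probe was above background on 2 of the 3 untreated HT29 arrays and on all others, so that the lower level rests in part on a reading not well above background. After OXA its 3 arrays in HT29 were 7.13, 5.92 and 6.01, so that the first replicate stood apart within the group. *ZNF544* was higher by 0.86 (SE 0.08) and *ZNF616* by 0.76 (SE 0.09). *ZNF274*, a KRAB protein known to bring SETDB1 to the 3′ ends of ZNF genes themselves, was also chosen after its values were seen and was higher by 0.52 (SE 0.10, limma adjusted p = 0.0116). Among the down-regulated genes, *ZNF837* changed by -0.77 (SE 0.09), from 10.74, 10.88 and 10.78 to 10.09, 9.93 and 10.06 (limma adjusted p = 0.000177). *ZNF264* (-0.55, SE 0.11), *ZNF283* (-0.43, SE 0.07) and *ZNF552* (-0.39, SE 0.08) changed less, and the calls of *ZNF264* in 6 and of *ZNF552* in 5 of 6 fits with an array left out were lost, without a change of direction.

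**Figure D1:**
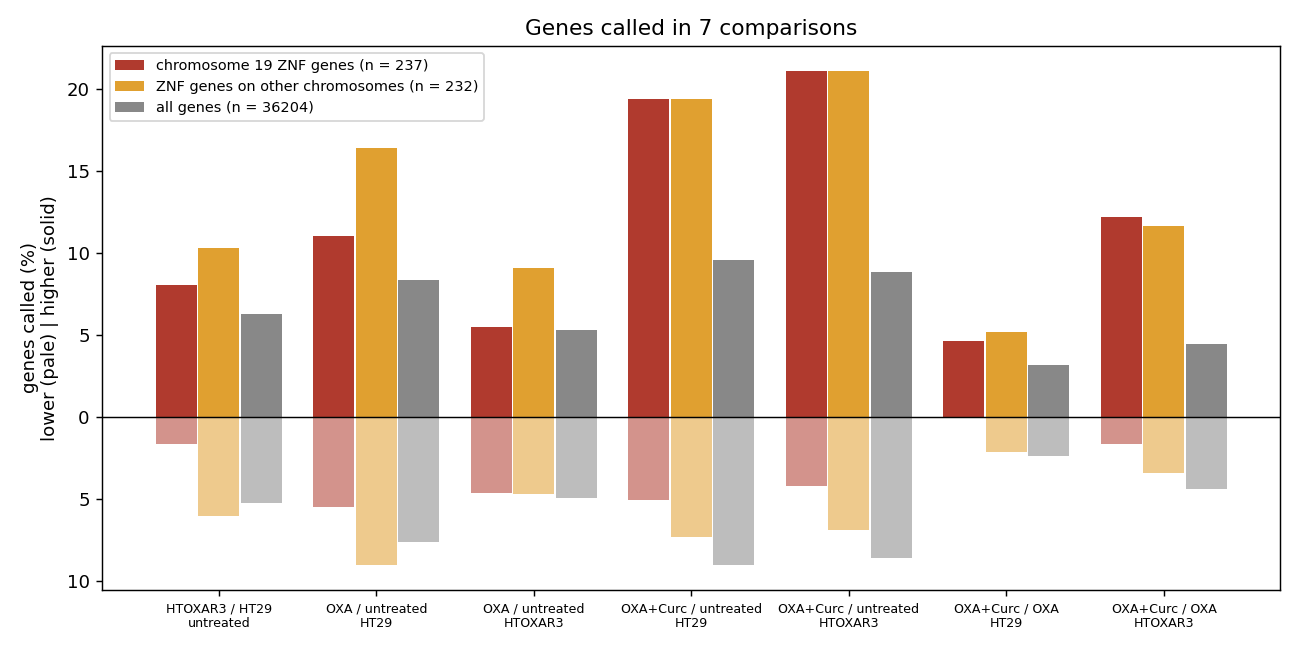
Percent of genes called higher (solid bars, above 0) or lower (pale bars, below 0) in 7 comparisons, for the chromosome 19 ZNF genes, the 232 ZNF genes on other chromosomes and all gene names. With OXA plus Curcumin the ZNF genes of chromosome 19 and of the other chromosomes were called higher in the same shares, 19.4% in HT29 and 21.1% in HTOXAR3.

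OXA moved ZNF genes in both directions. In HT29, 26 of the 237 genes were up-regulated and 13 down-regulated, where 8.33% and 7.62% of all gene names were called. The ZNF genes called made up 11% and 5.49%. In HTOXAR3 the counts were 13 and 11, where 5.31% and 4.94% of all gene names were called, and their sum was 13 to 19 with an array left out, lowest without the third replicate under OXA. Among genes above background on all 18 arrays, 15.5% of ZNF genes and 15.9% of gene names were called higher in HT29 and 8.78% and 15.1% lower, and in HTOXAR3 8.11% and 10.2% higher and 7.43% and 9.82% lower. Of the marker lists, *COL1A1* (1 of 6 fibroblast genes, above background on 10 of 18 arrays) was called higher, *CEACAM5* (on 16 of 18) was called lower and *VIL1* was higher by 1.06 under OXA in HT29, *CD14* changed by -0.92 in HT29 and -0.59 in HTOXAR3, and their part in the result was not tested. Up-regulated in both lines were *ZNF180*, *ZNF444*, *ZNF530*, *ZNF559*, *ZNF562*, *ZNF584*, *ZNF616*, *ZNF653* and *ZNF799*, 34.6% of the HT29 list and 69.2% of the HTOXAR3 list. Down-regulated in both were *ZNF544*, *ZNF552*, *ZNF565*, *ZNF586*, *ZNF766*, *ZNF784*, *ZNF792* and *ZNF814*, 61.5% and 72.7% of the lists. The lines shared no arrays in these comparisons. The overlap over all gene names was not counted, so whether this sharing is particular to ZNF genes was not tested. The median change of the 237 genes was 0.045 in HT29 and 0.052 in HTOXAR3, against -0.008 and 0.009 over all gene names. It was 0.020 in HT29 without the first and 0.085 without the third untreated replicate, and -0.042 in HTOXAR3 with the processed signal, where all gene names had -0.194.

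*ZNF530* had the largest OXA response among the genes measured on every array in either line. It went from 5.33, 5.26 and 5.12 to 6.49, 6.67 and 6.73 in HT29, a rise of 1.39 (SE 0.14, limma adjusted p = 5.35e-05). In HTOXAR3 it went from 5.50, 5.95 and 5.33 to 6.56, 6.75 and 6.47, a rise of 1.00 (SE 0.14, limma adjusted p = 0.00204). Values under OXA plus Curcumin, between 6.63 and 6.96 in the 6 arrays of both lines, overlapped those under OXA alone, and the change on adding Curcumin was 0.13 (SE 0.14) in HT29 and 0.14 (SE 0.14) in HTOXAR3, neither of them called.

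*ZNF584* rose by 0.96 (SE 0.06) in HT29 and by 0.78 (SE 0.06) in HTOXAR3, and *ZNF562* by 0.75 (SE 0.07) and 0.66 (SE 0.07). These are readings of single probes. A second probe of *ZNF584*, also measured on all arrays, read 0.18 in HT29 and -0.14 in HTOXAR3, the other probes of *ZNF562* read 0.12 and -0.30 in HT29, and whether the probes read different transcripts was not tested. With the mean of all probes *ZNF584* lost its call in HTOXAR3 and *ZNF562* in both lines. *ZNF358* rose in HT29 by 1.13 (SE 0.16, limma adjusted p = 0.000889), from a highest untreated value of 5.91 to a lowest of 6.65, and in HTOXAR3 by 0.51 (SE 0.16), which was not called. *ZNF799* in HTOXAR3, at 0.65 (SE 0.14), lost its call in 5 of 6 fits with an array left out.

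Among the genes that fell under OXA, *ZNF552* went from 8.33, 8.48 and 8.38 to 7.64, 7.84 and 7.96 in HT29, a change of -0.58 (SE 0.08, limma adjusted p = 0.000513). In HTOXAR3 it went from 8.03, 8.02 and 7.96 to 7.37, 7.31 and 7.31, a change of -0.67 (SE 0.08, limma adjusted p = 0.000296). *ZNF565* (-0.69, SE 0.08) and *ZNF586* (-0.56, SE 0.07) fell in HT29, and *ZNF850* (-0.52, SE 0.08), *ZNF544* (-0.61, SE 0.08) and *ZNF814* (-0.51, SE 0.08) in HTOXAR3. With the mean of all probes these 3 calls in HTOXAR3 were lost, at -0.21 for *ZNF850*, -0.20 for *ZNF544* and -0.35 for *ZNF814*. The second probe of *ZNF544*, measured on all arrays, went the other way by 0.23 in HT29 and 0.21 in HTOXAR3. *ZNF329* fell by 0.74 (SE 0.15) in HT29 on a probe measured on all arrays, and its call was lost in 5 of 6 fits with an array left out.

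*ZNF579* (chr19:56088893-56088952) was the single ZNF gene whose OXA response was called different between the lines, where 0.608% of all gene names were called with a higher and 0.398% with a lower response in HTOXAR3. In HT29 its values fell from 13.77, 13.80 and 13.73 to 13.23, 13.45 and 13.32, by 0.43 (SE 0.07, limma adjusted p = 0.00225). In HTOXAR3 they rose from 13.94, 13.93 and 13.99 to 14.28, 14.27 and 14.38, by 0.36 (SE 0.07, limma adjusted p = 0.0168). The arrays of the groups did not overlap in either line, and the difference of the responses was 0.79 (SE 0.10, limma adjusted p = 0.00303). Under OXA plus Curcumin the change from untreated was -0.11 (SE 0.07) in HT29 and 0.16 (SE 0.07) in HTOXAR3, neither called.

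**Figure D2:**
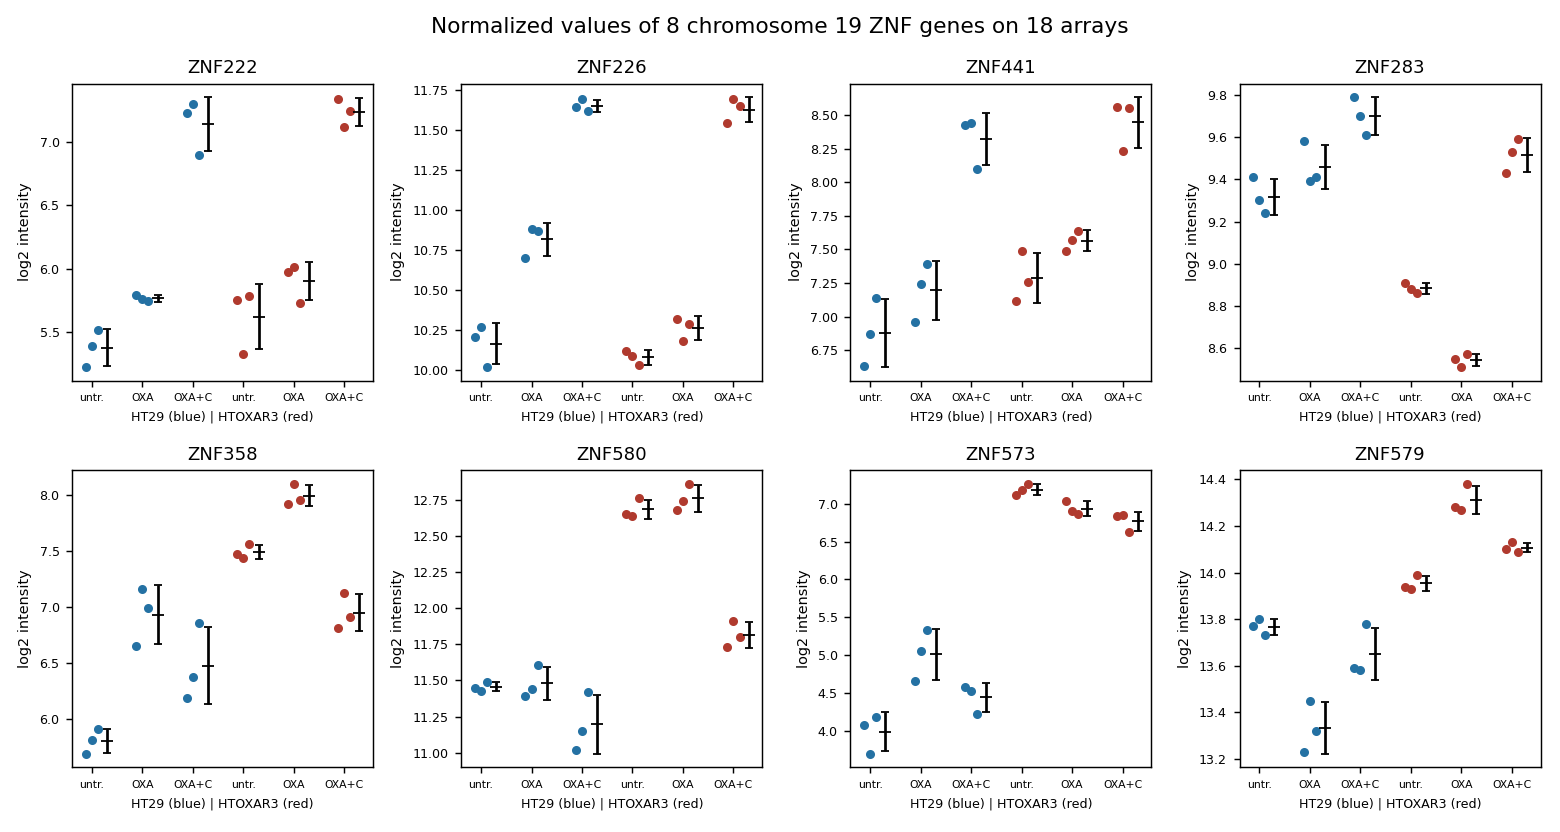
Normalized log2 intensity of 8 ZNF genes on each of the 18 arrays, HT29 in blue and HTOXAR3 in red, with the mean and SD (n = 3) of each group in black; each panel has its own axis, which does not start at 0. *ZNF222*, *ZNF226* and *ZNF441* are highest under OXA plus Curcumin in both lines, *ZNF573* separates the lines, and *ZNF579* moves in opposite directions under OXA.

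With OXA plus Curcumin the rises outnumbered the falls. Relative to untreated cells, 46 of the 237 genes were up-regulated and 12 down-regulated in HT29, and 50 and 10 in HTOXAR3. Of all gene names, 9.56% were called higher and 9.02% lower in HT29, and 8.82% and 8.64% in HTOXAR3. The ZNF genes called higher made up 19.4% in HT29 and 21.1% in HTOXAR3, and their median change was 0.12 and 0.17 against -0.03 and -0.01 over all gene names. Both lines shared 38 up-regulated genes, 82.6% of the HT29 list and 76% of the HTOXAR3 list, among them *ZNF222*, *ZNF226*, *ZNF441*, *ZNF530* and *ZNF562*. The matching overlap over all gene names was not counted. The 232 ZNF genes on other chromosomes were called higher in the same shares, with medians of 0.04 and 0.10, and the 1581 other genes of chromosome 19 in 17.6% and 14.2%. In the same comparisons *VIL1* was higher by 1.06 in HT29, *CDH1* by 0.49 in HT29 and 0.32 in HTOXAR3, *KRT20* by 0.53 in HTOXAR3 and *CD68* by 1.15 and 1.44, and *LGALS4* (-0.61) and *CD14* (-0.55) were lower in HTOXAR3. The median change of the colon epithelium list was 0.07 in HT29 and 0.15 in HTOXAR3. Its log2 sum, which follows the brightest genes, was 19.13 to 19.21 in HT29 and 19.14 to 19.18 in HTOXAR3 under the combination. The part of these markers in the result was not tested.

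A larger share of ZNF genes than of all gene names was measured on every array, so the shares were also taken within those genes. Among the 148 ZNF genes well above background on all 18 arrays, 28.4% were called higher in HT29 and 31.1% in HTOXAR3, against 17.6% and 16.5% of the 17463 gene names measured as widely. Calls of lower level were made for 8.11% and 6.08% of these ZNF genes, against 18% and 16.9%.

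*ZNF222*, the leading gene in both lines, had 5.22, 5.39 and 5.51 in untreated HT29 and 7.23, 7.30 and 6.90 under OXA plus Curcumin, a rise of 1.77 (SE 0.14, limma adjusted p = 2.26e-06). In HTOXAR3 it went from 5.75, 5.32 and 5.78 to 7.34, 7.12 and 7.25, a rise of 1.62 (SE 0.14, limma adjusted p = 6.32e-06). *ZNF226* rose by 1.48 (SE 0.08) in HT29 and by 1.54 (SE 0.08) in HTOXAR3, *ZNF441* by 1.45 (SE 0.15) and 1.16 (SE 0.15), and *ZNF530* by 1.52 (SE 0.14) and 1.14 (SE 0.14). *ZNF562* rose by 1.05 (SE 0.07) and 1.29 (SE 0.07), while its other probes changed by 0.18 and -0.25 in HT29 and by 0.44 and -0.17 in HTOXAR3. *ZNF274* (named above) rose by 0.62 in HT29 and 0.75 in HTOXAR3.

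Down-regulated in both lines were *ZNF552*, *ZNF575*, *ZNF792* and *ZNF814*. *ZNF575* fell by 0.58 (SE 0.11) in HT29 and by 0.74 (SE 0.11) in HTOXAR3, the former call being kept in 2 of 6 fits with an array left out, and *ZNF792* by 0.54 (SE 0.10) and 0.67 (SE 0.10). *ZNF557* (-0.61, SE 0.10) and *ZNF100* (-0.58, SE 0.10) fell in HT29. *ZNF329* fell by 0.75 (SE 0.15) in HT29 on its brighter probe, while its other probe, above background on 1 array, read 0.99 higher, and the mean of both probes was 0.12. Its call was kept in 1 of 6 fits with an array left out. *ZNF580* fell in HTOXAR3 by 0.87 (SE 0.09, limma adjusted p = 7.76e-05), and its change in HT29 was -0.26 (SE 0.09), which was not called. The difference between the lines for *ZNF580* was -0.61 (SE 0.13, limma adjusted p = 0.245). No ZNF gene was called for a different response to OXA plus Curcumin between the lines by limma, where 0.32% of all gene names were called with a higher and 0.536% with a lower response in HTOXAR3, and 29 of the 237 (12.2%) had an unadjusted p below 0.05, as did 14.4% of all gene names. The count was 0 or 1 with an array left out, and replicate number as a block gave 1.

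**Figure D3:**
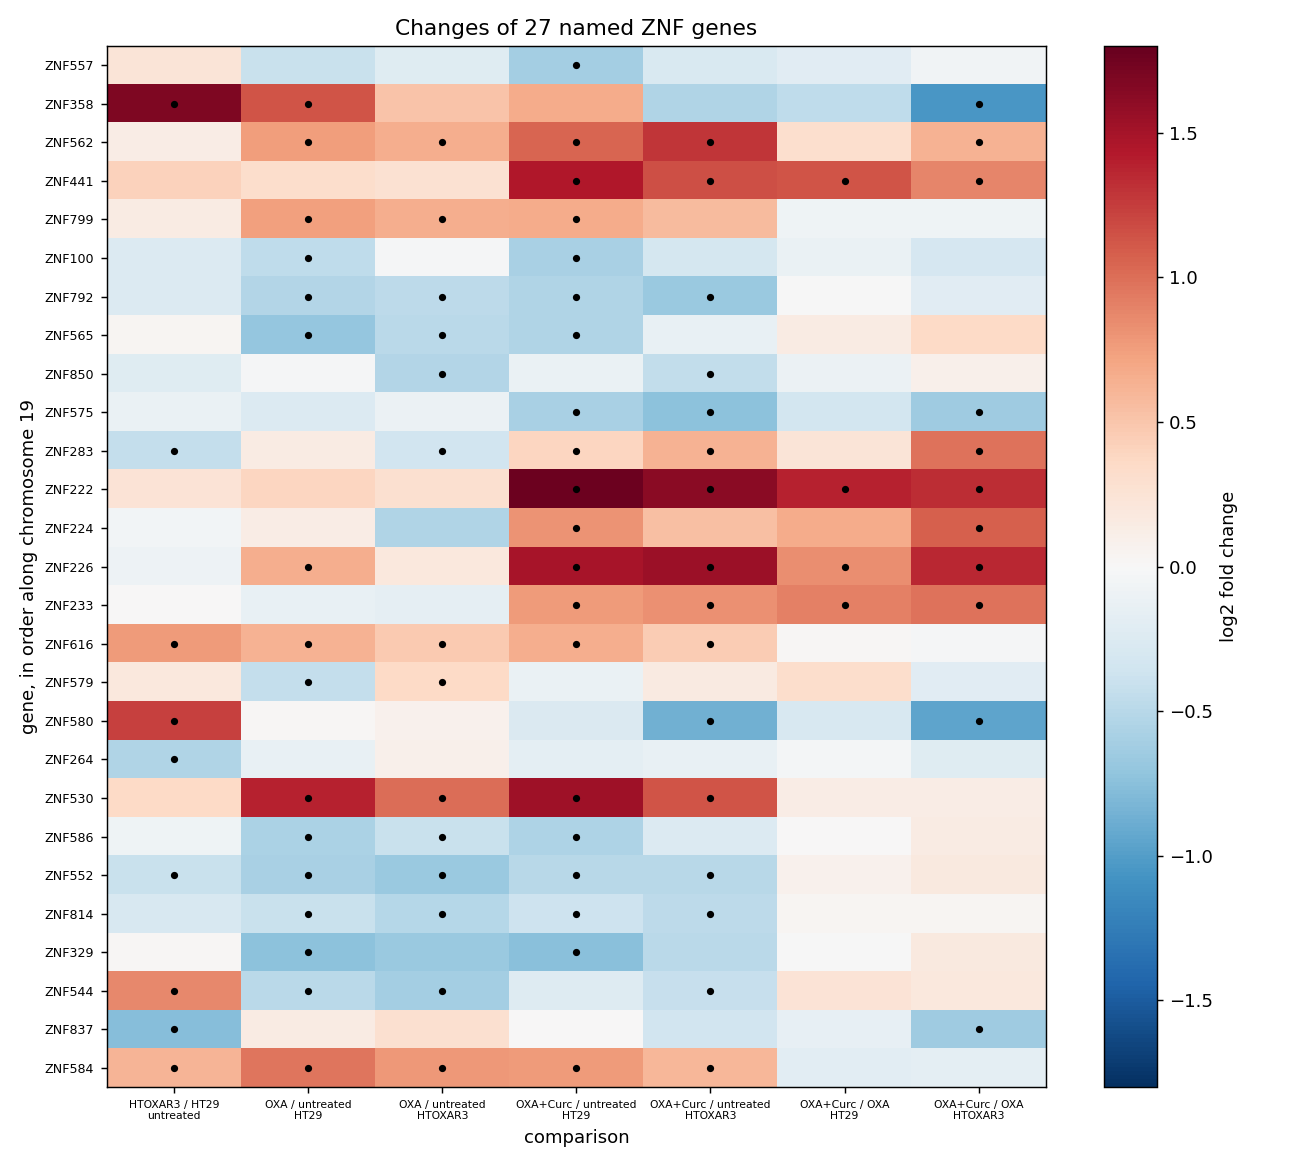
Log2 fold change (colour) of 27 named ZNF genes, in their order along chromosome 19, in 7 comparisons; a black dot marks a called gene. *ZNF222*, *ZNF226*, *ZNF441* and *ZNF233* are called higher in the 4 comparisons that involve Curcumin, while *ZNF530* and *ZNF584* are called higher in the 4 comparisons of a treatment with untreated cells and not when Curcumin is added to OXA.

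The addition of Curcumin to OXA was read directly by comparing the combination with OXA alone, at the same OXA dose within each line. In HT29, 11 of the 237 genes were up-regulated and 0 down-regulated by limma, where 3.14% and 2.39% of all gene names were called, and 64 of the 237 (27%) had an unadjusted p below 0.05 in either direction, as did 22.2% of all gene names. In HTOXAR3, 29 were up-regulated and 4 down-regulated, where 4.43% and 4.41% of all gene names were called. Among genes above background on all 18 arrays, the shares called higher were 6.76% of ZNF genes and 5.96% of gene names in HT29, and 18.2% and 8.46% in HTOXAR3. ZNF genes on other chromosomes were called higher in 5.17% and 11.6%, near the 4.64% and 12.2% of those on chromosome 19. All 11 genes of HT29 were also called higher in HTOXAR3, where they made up 37.9% of the list. They were *ZNF101*, *ZNF155*, *ZNF222*, *ZNF226*, *ZNF233*, *ZNF432*, *ZNF441*, *ZNF701*, *ZNF765*, *ZNF813* and *ZNF845*. Here too the overlap over all gene names was not counted. The other genes called higher in HTOXAR3 also had positive changes in HT29, so that the 29 ranged there from 0.17 to 1.38, and the difference between the lines was called for *ZNF283* only, where 0.0276% of all gene names were called with a higher and 0.108% with a lower change in HTOXAR3. The HT29 count was sensitive to single arrays and was 4 without the second replicate under OXA plus Curcumin. In HTOXAR3 it was between 20 and 24 with an array left out, lowest without the third replicate under OXA plus Curcumin. *CD68*, a lysosomal protein gene that many cells express and that was listed as a leukocyte marker, rose by 1.19 in HT29 and 1.40 in HTOXAR3 in the same comparison, *PTPRC*, the common leukocyte marker, was not called, and the list as a whole is not summarised. Of the 12 colon epithelium markers, *KRT20* was higher by 0.52 and *LGALS4* was lower (-0.62) in HTOXAR3. The part of these markers in the ZNF result was not tested.

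*ZNF222* went from 5.79, 5.76 and 5.74 under OXA to 7.23, 7.30 and 6.90 when Curcumin was added in HT29, a rise of 1.38 (SE 0.14, limma adjusted p = 0.000159). In HTOXAR3 it went from 5.97, 6.01 and 5.73 to 7.34, 7.12 and 7.25, a rise of 1.33 (SE 0.14, limma adjusted p = 0.000135). All arrays with Curcumin lay above all arrays without it in either line, and values under OXA alone were not called different from untreated cells. *ZNF226* (chr19:44679287-44679346) read 10.70, 10.88 and 10.87 under OXA and 11.64, 11.69 and 11.62 with Curcumin in HT29, a rise of 0.83 (SE 0.08, limma adjusted p = 9.41e-05). In HT29 it had already risen under OXA alone, from 10.21, 10.27 and 10.02 in untreated cells, and that response was called. In HTOXAR3 the values were 10.32, 10.18 and 10.29 and then 11.54, 11.69 and 11.65, a rise of 1.36 (SE 0.08, limma adjusted p = 8.53e-07). Its second probe, also above background on all arrays, read 0.05 in HT29 and 0.21 in HTOXAR3, so that the rise was seen by only 1 of its 2 probes.

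*ZNF441* rose by 1.13 (SE 0.15) in HT29 and 0.88 (SE 0.15) in HTOXAR3, and *ZNF233*, whose probe is printed above, by 0.90 (SE 0.15) and 0.98 (SE 0.15). The HT29 call of *ZNF233* was kept in 2 of 6 fits with an array left out. Its probe was above background on 15 of 18 arrays, and its second probe changed by 0.67 and 0.76. *ZNF224*, a KRAB repressor of the aldolase A gene and a partner of WT1, rose in HTOXAR3 by 1.08 (SE 0.16, limma adjusted p = 0.0024), from 6.84, 6.78 and 7.07 to 7.86, 7.92 and 8.15. Its change in HT29 was 0.67 (SE 0.16), which was not called, and the difference between the lines was 0.41 (SE 0.22), not called either. *ZNF155* (0.53 in HT29, 0.89 in HTOXAR3) and *ZNF432* (0.69 and 0.80) were chosen after their values were seen, and the HT29 call of *ZNF155* was kept in 3 of 6 fits with an array left out. *ZNF114*, chosen in the same way, was called in HTOXAR3 at 1.00 (SE 0.20), yet its probe was above background on 1 of 18 arrays, so that its level had only an upper bound on the others, and the call was kept in 2 of 6 fits with an array left out.

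*ZNF283* (chr19:44352724-44352783) was the single ZNF gene called for a line difference when Curcumin was added, and that call was not stable. Its values in HTOXAR3 were 8.91, 8.88 and 8.86 untreated, 8.55, 8.51 and 8.57 under OXA and 9.43, 9.53 and 9.59 under OXA plus Curcumin, a rise over OXA of 0.97 (SE 0.07, limma adjusted p = 8.54e-06). In HT29 they were 9.41, 9.30 and 9.24, then 9.58, 9.39 and 9.41, then 9.79, 9.70 and 9.61, a change over OXA of 0.24 (SE 0.07), which was not called. The difference was 0.73 (SE 0.10, limma adjusted p = 0.0436), close to the threshold, and its call was lost in 11 of 12 fits with an array left out, with slide or replicate number as a block, and when only the groups compared were fitted. The value kept its sign in all of these, between 0.68 and 0.78.

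In HTOXAR3, 4 genes fell when Curcumin was added. *ZNF358* went from 7.92, 8.10 and 7.96 to 6.81, 7.13 and 6.91, a fall of 1.05 (SE 0.16, limma adjusted p = 0.00374), and *ZNF580* from 12.68, 12.74 and 12.86 to 11.73, 11.91 and 11.80, a fall of 0.95 (SE 0.09, limma adjusted p = 0.000118). *ZNF580* then lay between the 11.43 to 11.49 of untreated HT29 and the 12.64 to 12.76 of untreated HTOXAR3. *ZNF837*, which was lower in HTOXAR3 at the outset, fell by 0.63 (SE 0.09), and *ZNF575* by 0.63 (SE 0.11), a call kept in 2 of 6 fits with an array left out. In HT29 the changes of these genes were -0.46 (SE 0.16) for *ZNF358*, -0.28 (SE 0.09) for *ZNF580*, -0.15 (SE 0.09) for *ZNF837* and -0.33 (SE 0.11) for *ZNF575*, none of them called.

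The genes up-regulated by the addition of Curcumin were spread unevenly along the chromosome. Genes were ordered by probe position and split where the gap to the next exceeded 1000000 bases, which gave 16 groups, of which 7 held at least 8 genes. In HTOXAR3, 25 of the 29 genes called higher lay in the 4 groups with the most such calls, which hold 103 of the 237. These 4 groups were picked by those counts, so the figure is a description and no test of an uneven spread. The group from *ZNF575* to *ZNF296* (chr19:44040017-45575588) held 24 genes, of which 7 were called higher and 1 lower in HTOXAR3 and 4 higher in HT29, with medians of 0.30 and 0.15. The group from *ZNF175* to *ZNF331* (chr19:52092551-54083467) held 38 genes, of which 10 were called higher in HTOXAR3 and 5 in HT29, with medians of 0.11 and 0.08. With an array left out, the latter group had 6 to 9 genes called higher in HTOXAR3, lowest without the third replicate under OXA plus Curcumin.

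Of the 25 genes from *ZNF653* to *ZNF791* (chr19:11596540-12740240), 5 were called higher in HTOXAR3 and 1 in HT29, and of the 16 from *ZNF557* to *ZNF846* (chr19:7087867-9868210), 3 and 0. The largest group, the 57 genes from *ZNF628* to *ZNF446* (chr19:55995696-58992591), had 0 called higher in either line and 2 called lower in HTOXAR3, with medians of 0.05 and 0.03. The 24 genes from *ZNF565* to *ZNF573* (chr19:36673459-38229314) had 0 called in either line by limma, but 6 of the 24 were above background on all arrays, and the 33 from *ZNF101* to *ZNF254* (chr19:19790730-24309903) had 1, *ZNF101*, in each line.

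Other genes lying within the same stretches, with names other than ZNF followed by digits, were counted in the same way. Zinc finger genes with other symbols may be among them. How many of these other genes were above background was not counted, so a difference in calls can also reflect a difference in detection. Between *ZNF575* and *ZNF296* there were 34 such other genes, of which 1 was called higher in HTOXAR3 and 0 in HT29. Their medians were 0.06 and 0.02. Between *ZNF175* and *ZNF331* there were also 34, of which 2 and 0 were called higher, with medians of 0.04 and 0.05. In the other 5 large groups, such other genes were called higher in HTOXAR3 in 2 of 66 (from *ZNF557*) and 1 of 18 (from *ZNF653*) cases. The counts were 0 of 39 from *ZNF101*, 1 of 30 from *ZNF565* and 2 of 83 from *ZNF628*. In HT29 they were 1, 1, 0, 1 and 2, in the same order. These counts are descriptions, and no difference between groups or kinds of gene was tested.

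**Figure D4:**
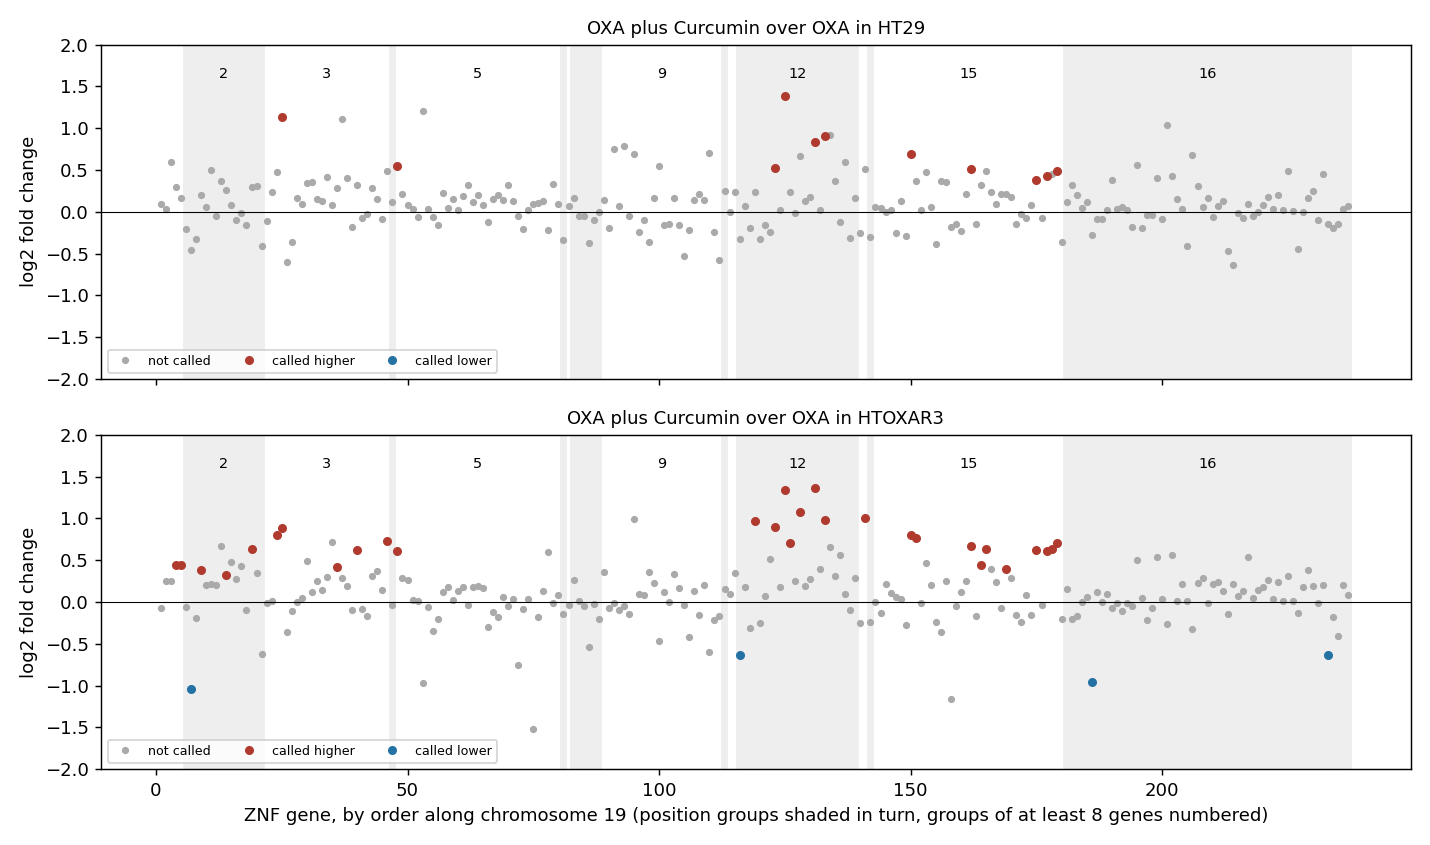
Log2 fold change of OXA plus Curcumin over OXA for the 237 ZNF genes, in their order along chromosome 19 (horizontal axis: rank, not distance), in HT29 above and HTOXAR3 below; red and blue points are called genes. Groups 12 and 15, from *ZNF575* to *ZNF296* and from *ZNF175* to *ZNF331*, hold 17 of the 29 genes called higher in HTOXAR3, and group 16 holds 0.

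Corepressors of KRAB zinc finger proteins and genes of H3K9 methylation, demethylases that remove it included, were examined through a list of 38 genes. All of them were above background on all 18 arrays. *TRIM28* itself was not called in any of the 10 comparisons. In untreated HTOXAR3, 6 of the 38 were higher and 4 lower than in HT29, where 11.5% and 10.1% of gene names measured as widely were called. *DNMT3B*, a DNA methyltransferase, was higher by 0.84 (SE 0.10) and *CBX5*, which encodes HP1 alpha, by 0.47 (SE 0.10). *MPHOSPH8* (-0.71, SE 0.06) and *TASOR* (-0.57, SE 0.07), subunits of the HUSH silencing complex, were both lower, while its subunit *PPHLN1* (-0.01, SE 0.05) and the associated *MORC2* (0.00, SE 0.07) were not called. *MTA1* (0.59), *EHMT2* (0.41), *DAXX* (0.34) and *RESF1* (0.32) were the other rises, and *HDAC1* (-0.39) and *MTA2* (-0.37) the other falls.

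Under OXA, 11 of the 38 rose and 7 fell in HT29, and 4 and 6 in HTOXAR3, where 15.9% and 15.1% of gene names measured as widely were called in HT29 and 10.2% and 9.82% in HTOXAR3. *KDM4B*, a demethylase that removes H3K9me3, fell by 1.67 (SE 0.06, limma adjusted p = 3.8e-09) in HT29 and by 0.51 (SE 0.06, limma adjusted p = 0.000698) in HTOXAR3, and the difference of 1.16 between the lines was called (SE 0.09, limma adjusted p = 5.11e-05). *ATF7IP*, the stabilizing partner of SETDB1, rose by 0.62 in HT29 and 0.45 in HTOXAR3, *CBX5* rose by 1.06 and 0.52 and *HDAC1* by 0.38 and 0.33. *ATF7IP2* fell by 1.02 and 0.92 and *TRIM33* by 0.61 and 0.78. *SETDB1* rose in HT29 by 0.35 (SE 0.07), and *CHD3* (0.57), *SUV39H2* (0.32), *EHMT2* (0.32), *MPHOSPH8* (0.33), *DAXX* (0.28), *SMARCAD1* (0.30) and *DNMT3A* (0.30) were the remaining rises in that line. *MTA1* (-0.88), *TRIM24* (-0.39), *EHMT1* (-0.37) and *DNMT3B* (-0.45) completed the falls in HT29. In HTOXAR3 *SMARCAD1* (0.38) also rose, and *TRIM24* (-0.36), *RESF1* (-0.40) and *DNMT3B* (-0.63) also fell.

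With OXA plus Curcumin, 4 of the 38 were higher and 10 lower than in untreated HT29, and 3 and 12 in HTOXAR3, where 17.6% and 18% of gene names measured as widely were called in HT29 and 16.5% and 16.9% in HTOXAR3. *MBD1*, a methyl-CpG binding protein that recruits SETDB1, rose by 0.79 in both lines, and *ATF7IP* rose by 0.49 and 0.44. *CBX5* (0.67) and *CHD3* (0.42) rose in HT29 and *KDM4A* (0.40) in HTOXAR3. Genes that fell in both lines were *ATF7IP2*, *MTA1*, *TRIM33*, *SUV39H1*, *EHMT1*, *RESF1*, *ATRX*, *DNMT3B* and *KDM4B*, among them *DNMT3B* by 0.72 and 0.98 and *ATRX* by 0.34 and 0.63. *MTA2* (-0.35) fell in HT29, and *CBX1* (-0.33), *RBBP4* (-0.36) and *TRIM24* (-0.27) in HTOXAR3. For *KDM4B* the response differed between the lines by 0.59 (SE 0.09, limma adjusted p = 0.0298).

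Compared with OXA alone, the addition of Curcumin raised *MBD1* by 0.53 (SE 0.07) in HT29 and 0.52 (SE 0.07) in HTOXAR3 and lowered *HDAC1* by 0.26 and 0.42 and *SUV39H2*, an H3K9 methyltransferase, by 0.40 and 0.31. *KDM4B* rose in HT29 by 0.63 (SE 0.06), and *CBX5* (-0.52, SE 0.10) and *RBBP4* (-0.36, SE 0.06) fell in HTOXAR3. In all, 2 of the 38 rose and 2 fell in HT29, and 1 and 4 in HTOXAR3, where 5.96% and 4.91% of gene names measured as widely were called in HT29 and 8.46% and 8.81% in HTOXAR3.

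Zinc finger genes of chromosome 19 that carry other symbols were examined as a list. Of 20 listed, 19 were on the array and 8 were above background on all arrays, and 5 of these 8 were called in some comparison. Of gene names measured as widely, 58.5% were called in at least 1 of the 7 comparisons between groups. Between the untreated lines 2 of the 19 were called higher and 1 lower, where 6.26% and 5.28% of all gene names were called. *ZFP36*, a CCCH-type RNA-binding protein that promotes mRNA decay rather than a C2H2 factor, rose by 0.89 (SE 0.12) in HT29 and 0.79 (SE 0.12) in HTOXAR3 when Curcumin was added and was the single gene of the list called there, 1 of 19 where 3.14% of all gene names were called higher in HT29 and 4.43% in HTOXAR3. With OXA plus Curcumin it was higher than in untreated cells by 1.01 and 0.92. *ZBTB45* was lower under OXA by 0.58 and 0.40 and under OXA plus Curcumin by 0.53 and 0.31, and *ZSCAN22* was higher under OXA in HT29 by 0.55. In untreated HTOXAR3 *ZBTB45* (0.43) and *ZSCAN5A* (0.37) were higher and *ZBTB7A* (-0.46) lower than in HT29.

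Of 17 genes derived from or named for endogenous retroviruses or retroelements, a class of KRAB zinc finger targets, 11 were on the array and 4 were above background on all arrays, among them *HHLA2* and *HHLA3*, host genes named for their association with HERV-H repeats. *ERVMER34-1*, which encodes a retroviral envelope protein, was the single gene of this list to be called, where 31.1% of all gene names, and 58.5% of those above background on all 18 arrays, were called in at least 1 of the 7 comparisons between groups. It was lower in untreated HTOXAR3 by 0.35 (SE 0.07), lower under OXA in HT29 by 0.66 (SE 0.07) and lower under OXA plus Curcumin by 0.95 (SE 0.07) in HT29 and 0.37 (SE 0.07) in HTOXAR3. The addition of Curcumin lowered it by 0.55 (SE 0.07) in HTOXAR3. Between the lines, its response to OXA and that to the combination differed by 0.85 (SE 0.09, limma adjusted p = 0.00123) and 0.57 (SE 0.09, limma adjusted p = 0.0397).

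Over the 7 comparisons between groups, 94 of the 237 genes (39.7%) were called in at least 1 and 143 in none, where 31.1% of all gene names were called in at least 1. Among genes above background on all 18 arrays the shares were 57.4% of ZNF genes and 58.5% of gene names. Called in all 4 comparisons of a treatment with untreated cells were *ZNF444*, *ZNF530*, *ZNF559*, *ZNF562*, *ZNF584* and *ZNF616*, higher throughout, and *ZNF552*, *ZNF792* and *ZNF814*, lower throughout, though with the mean of all probes the OXA calls of *ZNF562* in both lines and of *ZNF584* and *ZNF814* in HTOXAR3 were lost. For genes called higher with Curcumin in HTOXAR3, 11 further probes of 10 genes were measured on all arrays, and all 11 had a positive change. Signs and not sizes are counted here and in the next sentence. The second probe of *ZNF226*, for example, changed much less than its first. The further probes of genes called higher with OXA plus Curcumin were positive in 10 of 12 cases in HT29 and 9 of 12 in HTOXAR3, those of genes called higher with OXA in 6 of 8 and 1 of 3, and those of genes called higher in untreated HTOXAR3 in 8 of 9. Where a gene gave a change on a single probe, transcript forms and probe behaviour cannot be told apart.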

How the data were processed

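Labelled RNA of 18 cultures was hybridized to 1-colour Agilent arrays of 62976 spots (58717 after control spots), with 6 groups of 3 biological replicates on 3 slides. The deposited intensity values are, per the file headers, the mean spot and median local background signals written by Agilent Feature Extraction, with probe positions on GRCh37. Here the background was corrected by normexp (offset 0), arrays were quantile normalized on the log2 scale, spots flagged as outliers (0.628%) were left out, and spots carrying the same probe were reduced to their mean. Each of 36204 gene names was represented by its brightest probe on average. Linear models with 6 group terms were fitted to all 18 arrays with limma 3.58.1 (R 4.3.3), and genes with |FC| > 1.2 and Benjamini-Yekutieli adjusted p below 0.05 were called. The series value table was not used because its lines carry no gene names. No column of another series was used.

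The ZNF genes and the gene lists were chosen with earlier results of these data known. Genes were named as the 4 largest rises and 4 largest falls per comparison (2 and 2 for line differences) among called genes above background on every array compared, and every called gene of the lists. Exceptions are stated where they occur. Symbols followed RefSeq accessions for 215 genes, current symbols for 19 and older symbols for 3. Same-numbered arrays deviated together in every pair (correlation over 0.1) for OXA against untreated in HT29 (0.117 to 0.242) and OXA plus Curcumin against OXA in HTOXAR3 (0.109 to 0.195). Tested on simulated data with 36057 genes, the fit recovered 20.9%, 46.3% and 72.7% of changes of 1.5-, 2- and 4-fold in the basal comparison with 0 false calls, and 35.8%, 46.3% and 80.3% for Curcumin added in HTOXAR3 with 2. The simulated noise was independent between genes and few genes were changed, unlike in the real arrays. The recovered shares and false calls therefore need not hold for these data. Precision is limited by the number of arrays. Probe and promoter letters were searched with Python 3.11.15. A marker gene of the leukocyte list is not reported here.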

Additional observations from a re-analysis of the deposited data

Results flagged for a closer look

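For *ZNF579* the response to OXA differed between the lines in a direct test, by 0.79 (log2, HTOXAR3 minus HT29, SE 0.10, limma adjusted p = 0.00303), with a fall in 3 of 3 HT29 arrays and a rise in 3 of 3 HTOXAR3 arrays. Within slide 2 the difference was 0.69 and within slide 3 it was 0.75.

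For *ZNF283* the change on adding Curcumin to OXA differed between the lines by 0.73 (SE 0.10, limma adjusted p = 0.0436). Within slide 2 the difference was 0.52 and within slide 3 it was 0.83, and the call was kept in 1 of 12 fits with an array left out and lost with slide or replicate number as a block and when only the groups compared were fitted.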

How the results depend on the processing

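Counts of called ZNF genes depended strongly on which arrays set the variance and on the adjustment of p. With only the groups compared in the fit, the count went from 23 to 6 in the basal comparison, from 39 to 3 and from 24 to 2 for OXA in HT29 and HTOXAR3, from 58 to 11 and from 60 to 23 for OXA plus Curcumin against untreated, from 11 to 0 and from 33 to 2 for Curcumin added to OXA, and from 1 to 0 for its line difference. Benjamini-Hochberg adjustment gave 39 genes in the basal comparison, 44 for OXA in HTOXAR3, 31 for Curcumin added in HT29, and 5, 2 and 4 for the line differences in the response to OXA, to OXA plus Curcumin and to Curcumin added. A normexp offset of 50 gave 18 for Curcumin added in HT29 and 2, 1 and 2 for the line differences. Leaving out dim probes gave 19 for Curcumin added in HT29 and 3 and 1 for the line differences in the response to OXA and to OXA plus Curcumin, and the processed signal gave 1 for the latter.

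With the replicate block the counts were 22, 35, 22, 56, 58, 11 and 32 in the 7 comparisons between groups. The replicate block gave 1 gene in place of 0 for the line difference in the response to OXA plus Curcumin and 0 in place of 1 for Curcumin added, as did the slide as a block for the latter. With the slide as a block the 7 counts were 21, 40, 23, 55, 64, 11 and 32. With an array left out, the counts were 13 to 19 for OXA in HTOXAR3 (lowest without the third replicate of OXA-treated HTOXAR3), 4 to 9 and 20 to 24 for Curcumin added in HT29 and HTOXAR3, and 1 to 2, 0 to 1 and 0 to 1 for the line differences.

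Medians of the 237 genes under the processed signal were 0.094 in the basal comparison, -0.042 for OXA in HTOXAR3 (all gene names -0.194), 0.234 for Curcumin added in HTOXAR3 (all gene names 0.094), and -0.121 and 0.135 for the line differences in the response to OXA and to Curcumin added. Offsets of 16 and 50 gave 0.105 and 0.075 for OXA plus Curcumin in HTOXAR3, and leaving out dim probes 0.235. Within slides the median was 0.084 in the basal comparison (slide 2), 0.205 and 0.032 for OXA plus Curcumin in HT29 (slides 2 and 3), and 0.103 and 0.147 for the line differences in the response to OXA plus Curcumin and to Curcumin added (slide 3).

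The tally that follows covers the ZNF genes named by the rule and *ZNF573*, *ZNF211*, *ZNF155*, *ZNF432* and *ZNF114*. It leaves out *ZNF274* and the genes of the lists. Over these ZNF genes, 334 values with an array left out kept their side of the threshold and 56 lost their call, and under the other settings 510 kept it, 55 lost it and 1 turned: *ZNF329* under OXA plus Curcumin in HT29 was 0.12 with the mean of all probes. Within slides, 76 values stayed within the spread between replicates and 32 moved by more, without a change of sign. The mean of all probes also ended OXA calls of *ZNF544*, *ZNF562*, *ZNF584*, *ZNF814* and *ZNF850*. The causes were not tested.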
